A study of Mus musculus with 6 samples.

Results

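The genes described here encode the proteasome, the barrel-shaped protease that degrades ubiquitin-tagged proteins in the cytosol and nucleus, together with its regulators and assembly factors. Members were taken by symbol from the deposited gene table: 50 symbols began with Psm, a letter from a to g and a digit, and leaving out the immunoproteasome genes Psmb8, Psmb9 and Psmb10 left 47 of 25031 genes. The rule itself used names only, but this group of genes was proposed with results of the same comparison in view, so its fold changes are given as a description and are not evidence that the group responds. The tested libraries were 3 from kidneys of mice given (+)CePPy, positively charged polypyrrole nanoparticles doped with cerium, at 5 mg/kg by vein directly after injury. They were set against 3 libraries from kidneys of mice given the same volume of saline (vehicle). All animals were wild-type male C57BL/6 mice, 7 to 8 weeks old, and in all of them both kidneys had undergone 23 minutes of ischemia, at a core temperature held at 37 °C, followed by reperfusion. No uninjured kidney was analysed here, and the sources used here do not state how long after injury the kidneys were taken. Whether each library came from a separate animal is not stated in the labels, so the p-values reflect variation among 6 libraries that may be partly or wholly technical.

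The proteasome has a core particle of stacked alpha and beta rings, in which the alpha rings gate the entry pore and 3 kinds of beta subunit carry the cutting sites. A regulatory particle caps the core: its base holds the ATPase ring that unfolds substrates, and its lid removes the ubiquitin chains. Core and cap together form the 26S proteasome. Other caps (the PA28 and PA200 activators) bind the same core, and dedicated chaperones build the rings. When proteasome activity is short, the transcription factor NRF1 (Nfe2l1) is known to raise the subunit genes together through antioxidant response elements, which its relative NRF2 also binds.

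Total counts were 29762157 to 37415213 per library, and 15416 genes had enough counts to be tested. Kidney identity was checked against defining markers of podocytes, collecting duct and the tubule segments, and none of these was at 0 in all libraries. In this tissue of many cell types, fewer cells of a type and less RNA per cell cannot be told apart. Of the 47 members, 46 passed the filter. The exception was Psmb11, the thymus-specific beta subunit, with 0 counts in each library, which allows up to 3 counts per library for counting error only. Psma8, an alpha subunit of the testis, passed the filter with 10, 14 and 10 counts in CePPy libraries and 10, 5 and 14 in vehicle libraries. Psmc3ip matches the symbol rule but encodes a meiotic recombination factor that is no proteasome subunit, and it is described apart.

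Transcripts of the 26S subunits had mostly lower values in CePPy kidneys, with log2 fold changes between -0.37 (Psmb5) and -0.03 (Psmc2) in all but Psma8. Of 32 tested 26S subunit genes, 31 had a negative log2 fold change (CePPy over vehicle), with a median of -0.19, and all members together gave 41 of 46 with the same median of -0.19. Over all genes tested, 49.5% had a negative value and the median was 0.003. In 26 of the 46 members every CePPy library lay below every vehicle library, against 14% of all genes tested, and in 0 members did every CePPy library lie above, against 12.3% of all genes. Highly expressed genes are measured more precisely. A floor on level, which does not match levels, was therefore also set. The same shares were taken at a mean level of 10 CPM (counts relative to library size, TMM-scaled) or more. There, 40 of 44 members had a negative value, against 54.1% of 9707 genes. At that level 25 members lay wholly below vehicle, against 18% of genes, and 0 wholly above, against 12.6%.

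No member passed the edgeR quasi-likelihood test over all genes at an adjusted p under 0.05, where 0.00649% of genes passed, and limma-voom also called 0 members. The members' edgeR adjusted p ranged from 0.102 (Psmb5) to 0.989 (Psmg2), while an unadjusted p under 0.05 was reached by 20 members with lower values (9.37% of all genes) and 0 with higher values (9.65% of all genes). That count of 20 was 8 without vehicle 2 and 8 without CePPy 3, where 6.62% and 6.82% of all genes had such a lower value. It was 13 without vehicle 1 and 13 without vehicle 3 (6.08% and 6.25% of all genes), and 26 without CePPy 2 (12.1% of all genes). The count of 0 with higher values was 1, Psme1, without vehicle 2 (7.67% of all genes). DESeq2 called 4 members lower, which were Psmb5, Psma7, Psmd3 and Psmd5, with adjusted p of 0.00057, 0.0125, 0.0123 and 0.0299, where it called 3.23% of all genes lower, and it called 0 members higher, where it called 3.43% of all genes higher. Without CePPy 2, edgeR called 1 member lower, Psmb5 (adjusted p = 0.0405), where 2.19% of all genes were called lower.

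**Figure D1:**
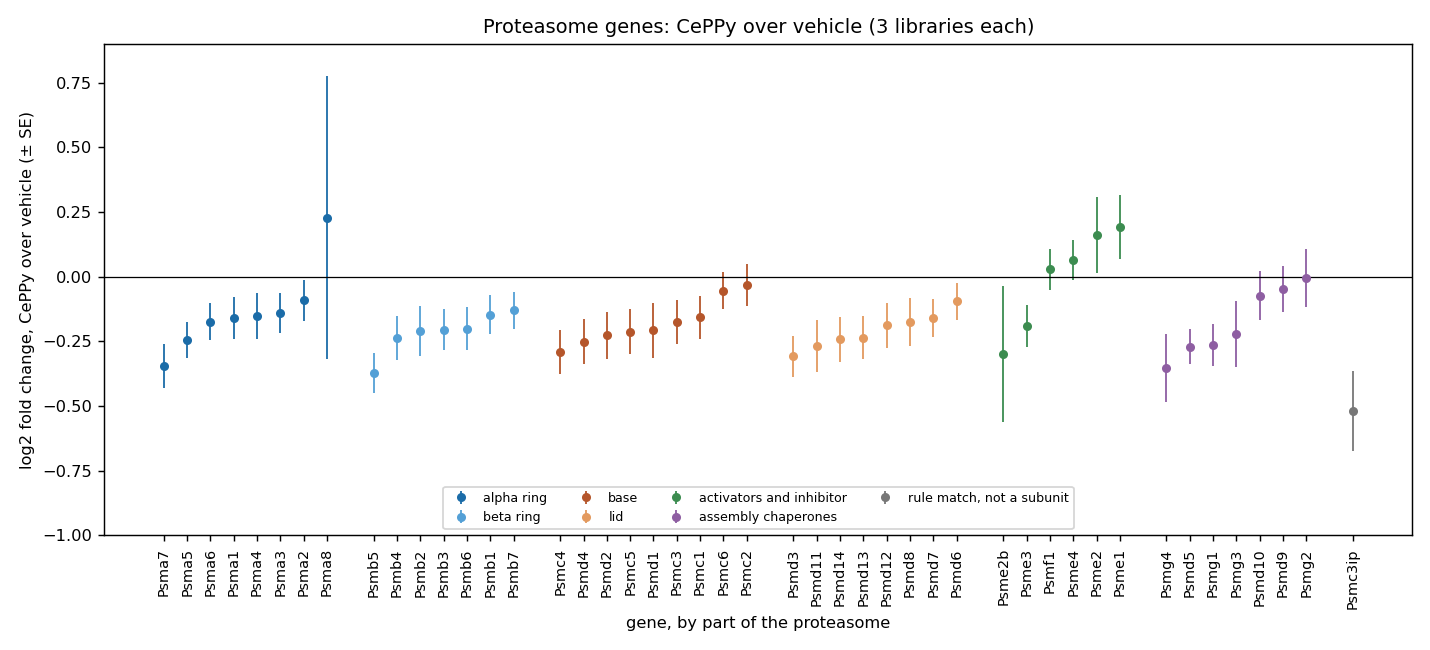
Log2 fold change (CePPy over vehicle, edgeR) with its standard error for the 46 tested members, grouped by part of the proteasome; 3 libraries per group. The alpha ring, beta ring, base, lid and chaperone genes lie below 0 except Psma8, while 4 of the 6 activator and inhibitor genes lie above 0.

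**Figure D2:**
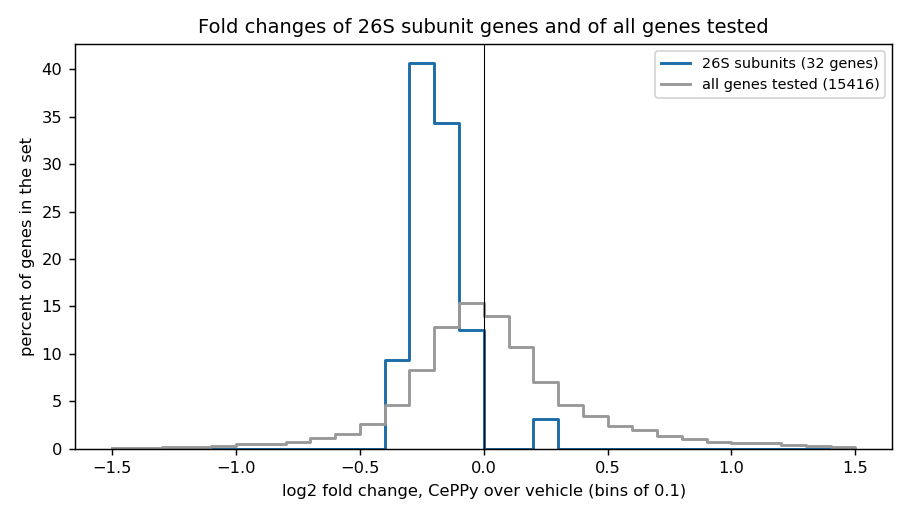
Percent of genes per bin of 0.1 log2 units for the 32 tested 26S subunit genes and for all 15416 genes tested, of which 234 lie outside the axis. The 26S subunit genes gather between -0.37 and -0.03, with Psma8 alone above 0, inside the range that all genes span.

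The difference was of about the same size in each part of the 26S particle. Summed core subunit transcripts measured 1691 ± 51.5 CPM in CePPy kidneys and 1954 ± 57.1 CPM in vehicle kidneys (SD, n = 3 each). Summed regulatory particle transcripts measured 2235 ± 133 CPM in CePPy kidneys and 2561 ± 78.2 CPM in vehicle kidneys. By library, 30, 30 and 31 of the 32 genes lay below their vehicle mean in CePPy 1, 2 and 3, with median differences of -0.20, -0.13 and -0.23 log2 units. CePPy 2 therefore lay nearest to vehicle. Members took 0.434%, 0.493% and 0.451% of all counts in CePPy 1, 2 and 3, against 0.523%, 0.553% and 0.513% in vehicle 1, 2 and 3. Each of these shares has a 95% exact binomial interval narrower than the distance between the groups (highest CePPy bound 0.496%, lowest vehicle bound 0.511%), which covers counting error only.

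Members varied less between libraries of a group than all genes above the same floor on level. Over members at 10 CPM or more, the median coefficient of variation was 5.84% in CePPy and 4.11% in vehicle. Over all genes above that floor it was 9.54% in CePPy and 6.44% in vehicle. The floor does not match levels, since the regulatory particle genes averaged 98.8 to 266 CPM. Whether the lower variation goes beyond their level was not tested.

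**Figure D3:**
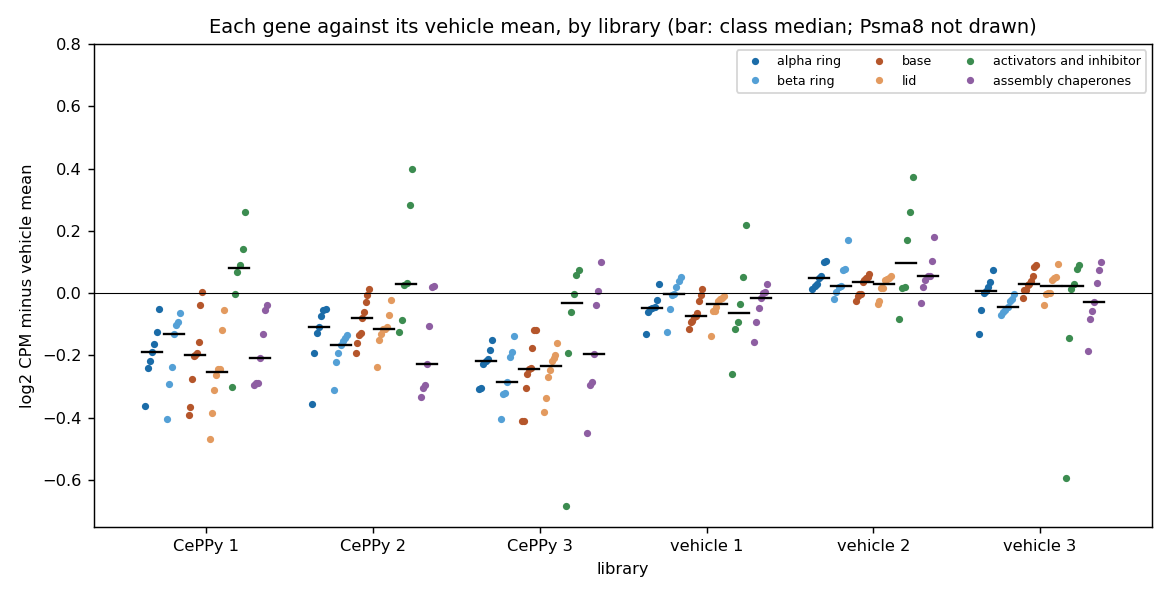
Log2 CPM of tested members minus their mean over vehicle libraries, by library and part of the proteasome. Points are genes and bars are class medians. Psma8 and Psmc3ip, the tested members with the highest and the lowest log2 fold change, are not drawn. In CePPy libraries the core, base, lid and chaperone points gather below 0. By the median over all 26S subunits CePPy 2 sits nearest to the vehicle libraries, but not in the beta ring or the chaperones.

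Promoter stretches are shown for a few chosen genes. Psmb5, Psma7 and Psmc4 had the lowest p of their parts, and Psmb6 is another catalytic subunit. Psmd9 and Psme1 had values that did not differ in that way. The choice does not represent the members, and it holds the core of the antioxidant response element more often than they do. Each line gives the 100 bases before the RefSeq start of the gene (GRCm38.p6), 5′ to 3′ on the gene's strand. Capitals mark matches, on either strand, to TGACNNNGC (core of the antioxidant response element), CCAAT (the NF-Y box) or GGGCGG (the GC box). The stretches lie at chr14:54617996-54618095 (minus strand) for Psmb5, chr11:70525257-70525356 (plus) for Psmb6, chr2:180042465-180042564 (minus) for Psma7, chr7:28050093-28050192 (minus) for Psmc4, chr5:123228090-123228189 (plus) for Psmd9 and chr14:55578394-55578493 (plus) for Psme1.
Psmb5: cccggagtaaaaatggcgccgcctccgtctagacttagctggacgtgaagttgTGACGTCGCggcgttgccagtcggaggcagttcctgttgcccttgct
Psmb6: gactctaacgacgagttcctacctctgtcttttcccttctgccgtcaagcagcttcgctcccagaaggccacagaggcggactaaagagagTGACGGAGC
Psma7: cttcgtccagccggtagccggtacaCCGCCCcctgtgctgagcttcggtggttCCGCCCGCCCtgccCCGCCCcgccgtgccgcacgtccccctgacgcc
Psmc4: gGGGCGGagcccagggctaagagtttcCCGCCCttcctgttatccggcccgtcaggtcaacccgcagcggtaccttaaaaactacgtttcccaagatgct
Psmd9: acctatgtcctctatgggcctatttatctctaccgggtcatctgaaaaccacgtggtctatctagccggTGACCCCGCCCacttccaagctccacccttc
Psme1: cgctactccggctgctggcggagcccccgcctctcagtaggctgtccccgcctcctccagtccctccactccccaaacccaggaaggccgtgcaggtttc

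The response element core began at position -47 in Psmb5, -9 in Psmb6 and -31 in Psmd9, where -1 is the last base before the start and where the Psmd9 match overlaps a GC box. RefSeq windows of 250 bases before to 50 after the start were at hand for 39 of the 47 members, in 42 promoters. In them TGACNNNGC was present in 14.3% of the members' promoters, against 12.4% of all 32851 promoters, a share near the background. The 6 genes that held it were Psmb5, Psmb6, Psmc6, Psmd12, Psme4 and Psmd9, with log2 fold changes of -0.37, -0.20, -0.05, -0.19, 0.07 and -0.05, values spread over most of the members' range. CCAAT was present in 33.3% of members' promoters against 37.4% of all, and GGGCGG in 54.8% against 35.7%. These matches describe letters in a window and do not show binding.

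In the alpha ring, which gates the pore, 7 of 8 genes had lower values (median log2 fold change -0.16). In 4 of the 8 (50%) every CePPy library lay below every vehicle library, against 14% of all genes. All parts were measured in the same 6 libraries, so the counts by part are not separate results. Psma7 (chromosome 2, 180036374 to 180042433, minus strand, GRCm38) measured 119, 119.6 and 124 CPM in CePPy 1, 2 and 3 and 156, 164 and 139.8 CPM in vehicle 1, 2 and 3. Each CePPy library lay below each vehicle library, and the groups were well apart (log2 fold change -0.35, SE 0.08, edgeR adjusted p = 0.118). Psma5 (chromosome 3, 108256926 to 108279974, plus strand) measured 72.3, 74.7 and 69.2 CPM in CePPy libraries and 84.1, 86.3 and 85.8 CPM in vehicle libraries (-0.25, SE 0.07, edgeR adjusted p = 0.144). For Psma6 (chromosome 12, 55384222 to 55418454, plus strand) the values were 107, 109 and 102 CPM in CePPy libraries and 116, 124 and 119.6 CPM in vehicle libraries (-0.17, SE 0.07). Both were separated by group. The alpha subunit nearest to no difference was Psma2, at 113, 111 and 105 CPM in CePPy libraries and 113, 125 and 112 CPM in vehicle libraries (-0.09, SE 0.08), where the groups overlapped. Psma1, Psma3 and Psma4 lay between these, with log2 fold changes of -0.16, -0.14 and -0.15.

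The beta ring was the part in which the groups were separated in each tested gene, though narrowly in Psmb2. In all, 7 of 7 lay wholly below vehicle, against 14% of all genes and 18% of genes at 10 CPM or more. The median log2 fold change was -0.20. Psmb5, the chymotrypsin-like subunit and the site that bortezomib blocks (chromosome 14, 54614119 to 54618022, minus strand), measured 179.9, 192 and 179.8 CPM in CePPy libraries and 245, 241 and 229 CPM in vehicle libraries. This was a difference of -22.8% (log2 fold change -0.37, SE 0.08, edgeR adjusted p = 0.102), and the highest CePPy library lay well under the lowest vehicle library. The caspase-like subunit Psmb6 (chromosome 11, 70525367 to 70527858, plus strand) measured 117, 108 and 103 CPM in CePPy libraries and 121, 133 and 123 CPM in vehicle libraries (-0.20, SE 0.08). Psmb7, the trypsin-like subunit (chromosome 2, 38588036 to 38644087, minus strand), measured 124, 114 and 118 CPM in CePPy libraries and 132, 128 and 129.7 CPM in vehicle libraries (-0.13, SE 0.07). The 3 catalytic subunits thus had the largest and the smallest log2 fold change of the ring, although whether they differ from each other was not tested. Of the structural beta subunits, Psmb4 (chromosome 3, 94884093 to 94886961, minus strand) measured 182, 192 and 171 CPM in CePPy libraries and 214, 225 and 204 CPM in vehicle libraries (-0.24, SE 0.08). Psmb3 (chromosome 11, 97703399 to 97713500, plus strand) measured 88.3, 86.1 and 77.3 CPM in CePPy libraries and 96.4, 98.2 and 95.5 CPM in vehicle libraries (-0.20, SE 0.08). Psmb1 and Psmb2 gave log2 fold changes of -0.15 and -0.21. Psmb2 was separated by a narrow gap, with its highest CePPy library at 69.9 CPM and its lowest vehicle library at 70.3 CPM.

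**Figure D4:**
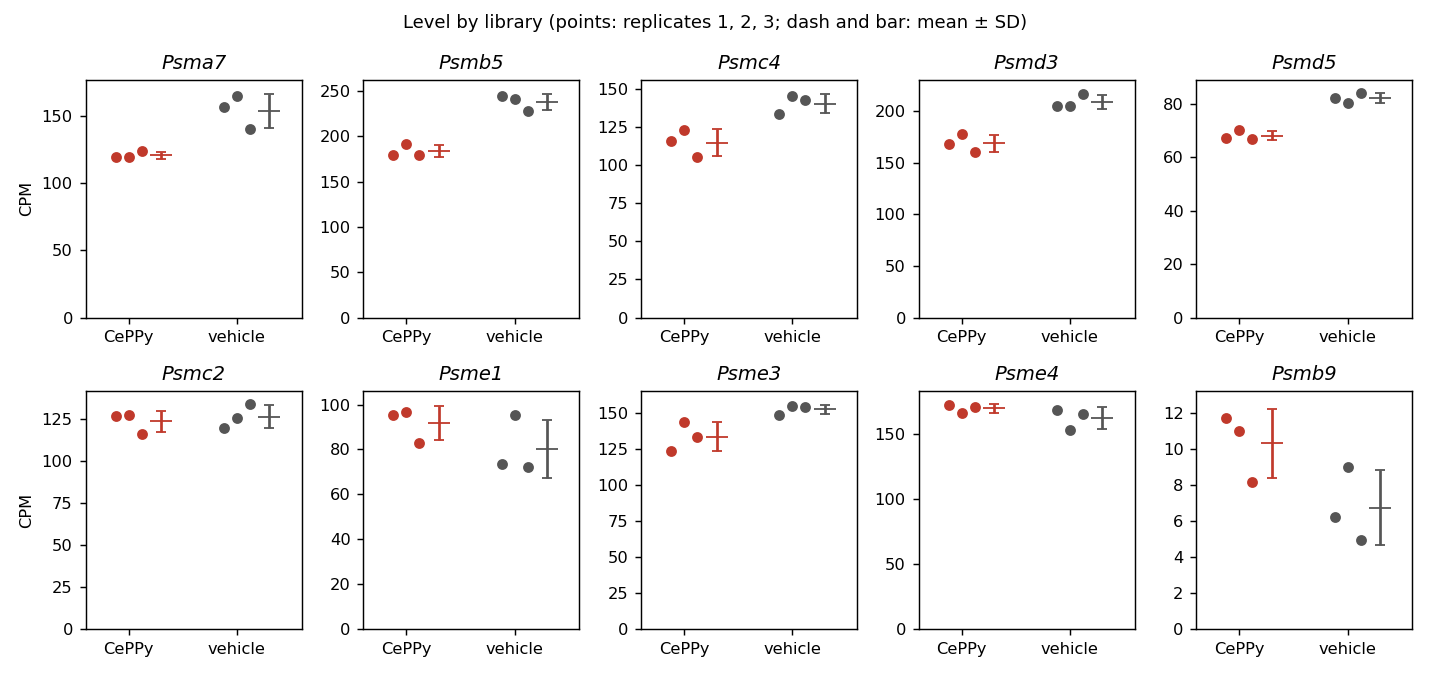
CPM by library for 9 members and the immunoproteasome gene Psmb9, with the mean and SD of each group beside the points and axes that start at 0. Psma7, Psmb5, Psmc4, Psmd3, Psmd5 and Psme3 are separated by group, and Psmc2, Psme1, Psme4 and Psmb9 overlap.

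The base, with its ATPases and ubiquitin receptors, had 9 of 9 genes at lower values (median log2 fold change -0.21). The groups did not overlap in 4 (44.4%), against 14% of all genes wholly below vehicle. The ATPase gene Psmc4 (chromosome 7, 28041707 to 28050101, minus strand) measured 116, 123 and 105 CPM in CePPy libraries and 133, 145 and 143 CPM in vehicle libraries (-0.29, SE 0.09, edgeR adjusted p = 0.150), and its groups were separated. The ubiquitin receptor gene Psmd4 (chromosome 3, 95032694 to 95042614, minus strand) measured 104, 106 and 89.4 CPM in CePPy libraries and 117, 122 and 118 CPM in vehicle libraries (-0.25, SE 0.09). Psmd2, the large scaffold subunit of the base (chromosome 16, 20651652 to 20663414, plus strand), measured 219, 263 and 254 CPM in CePPy libraries and 286, 286 and 289 CPM in vehicle libraries (-0.23, SE 0.09). Its CePPy libraries were spread and its vehicle libraries close together. The ATPase genes were not alike in their differences. Psmc2 (chromosome 5, 21785283 to 21803787, plus strand) measured 127, 128 and 116 CPM in CePPy libraries and 120.0, 126 and 134 CPM in vehicle libraries (-0.03, SE 0.08), and its groups overlapped. Psmc6 gave -0.05 (SE 0.07), and Psmc1, Psmc3, Psmc5 and Psmd1 gave -0.16, -0.17, -0.21 and -0.21.

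In the lid, 8 of 8 genes had lower values (median log2 fold change -0.21). The groups did not overlap in 6 (75%), against 14% of all genes wholly below vehicle. Psmd3, a scaffold subunit of the lid (chromosome 11, 98682554 to 98695979, plus strand), measured 168, 177 and 160.1 CPM in CePPy libraries and 205, 205 and 216 CPM in vehicle libraries (-0.31, SE 0.08, edgeR adjusted p = 0.124). Psmd14, the metalloprotease that cuts ubiquitin chains from substrates (chromosome 2, 61711694 to 61800376, plus strand), measured 82.2, 98.0 and 92.2 CPM in CePPy libraries and 104, 111 and 107 CPM in vehicle libraries (-0.24, SE 0.09). Psmd13 (chromosome 7, 140881968 to 140898643, plus strand) measured 107, 119 and 102 CPM in CePPy libraries and 128, 133 and 125 CPM in vehicle libraries (-0.24, SE 0.08). All 3 were separated by group. The smallest difference was that of Psmd6 (chromosome 14, 14112174 to 14120984, minus strand), at 98.2, 97.2 and 91.2 CPM in CePPy libraries and 101, 99.6 and 106 CPM in vehicle libraries (-0.10, SE 0.07), where the groups were separated by a narrow gap. Psmd7, Psmd8, Psmd11 and Psmd12 gave log2 fold changes of -0.16, -0.17, -0.27 and -0.19.

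The activators and the inhibitor had values on both sides of 0. In all, 2 of these 6 genes had lower values, and the median log2 fold change was 0.05. Wholly below vehicle lay 1 (16.7%), against 14% of all genes, a share near the background. Psme3, the nuclear PA28 gamma activator (chromosome 11, 101316213 to 101323537, plus strand), was the one whose groups were separated, at 124, 144 and 134 CPM in CePPy libraries and 149, 155 and 154 CPM in vehicle libraries (-0.19, SE 0.08, edgeR adjusted p = 0.260). The interferon-inducible PA28 genes lie beside each other on chromosome 14. Psme1, PA28 alpha (55578123 to 55581529, plus strand), measured 95.3, 96.9 and 82.9 CPM in CePPy libraries and 73.6, 95.3 and 72.0 CPM in vehicle libraries (0.19, SE 0.12, edgeR adjusted p = 0.432). Psme2, PA28 beta (55587441 to 55591113, minus strand), measured 53.1, 63.5 and 46.2 CPM in CePPy libraries and 40.2, 54.2 and 51.2 CPM in vehicle libraries (0.16, SE 0.15, edgeR adjusted p = 0.583). Vehicle 2 lay within the range of the CePPy libraries for both genes, and vehicle 3 did so for Psme2, so the groups overlapped. These values depended on single libraries: with 1 left out, Psme1 ran from 0.12 (without vehicle 3) to 0.33 (without vehicle 2), and Psme2 from 0.032 (without CePPy 2) to 0.27 (without CePPy 3).

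Psme2b is an annotated copy of Psme2 on chromosome 11 (48945354 to 48946190, minus strand), and reads of the pair could have been split. It measured 26.2, 24.0 and 16.3 CPM in CePPy libraries and 30.5, 34.0 and 17.4 CPM in vehicle libraries (-0.30, SE 0.26), and its value ran from -0.54 (without vehicle 3) to -0.11 (without vehicle 2). Psme2 and Psme2b summed to 76.4 ± 12.7 CPM in CePPy and 75.8 ± 10.7 CPM in vehicle (SD, n = 3 each), a difference smaller than either standard deviation. Psme4, the PA200 activator (chromosome 11, 30771726 to 30880361, plus strand), measured 173, 166 and 171 CPM in CePPy libraries and 168, 153 and 166 CPM in vehicle libraries (0.07, SE 0.08). The inhibitor PI31, encoded by Psmf1 (chromosome 2, 151715812 to 151744186, minus strand), measured 39.2, 38.1 and 37.3 CPM in CePPy libraries and 35.1, 37.8 and 39.5 CPM in vehicle libraries (0.03, SE 0.08). Neither gene separated the groups.

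The assembly chaperones had 7 of 7 genes at lower values with a median log2 fold change of -0.22. The groups did not overlap in 3 (42.9%), against 14% of all genes wholly below vehicle. Psmd5, a chaperone of the base (chromosome 2, 34849734 to 34874968, minus strand), measured 67.2, 70.1 and 66.9 CPM in CePPy libraries and 82.1, 80.4 and 84.0 CPM in vehicle libraries (-0.27, SE 0.07, edgeR adjusted p = 0.122). Psmg1, which helps build the alpha ring (chromosome 16, 95979933 to 95990960, minus strand), measured 25.6, 25.3 and 27.3 CPM in CePPy libraries and 30.9, 32.2 and 30.7 CPM in vehicle libraries (-0.26, SE 0.08). Psmg4, another core chaperone (chromosome 13, 34162964 to 34178173, plus strand), measured 11.4, 11.4 and 10.2 CPM in CePPy libraries and 14.0, 15.8 and 12.3 CPM in vehicle libraries (-0.35, SE 0.13). These 3 were separated by group. Psmg2, the partner of Psmg1 (chromosome 18, 67641599 to 67654162, plus strand), measured 18.9, 20.98 and 22.1 CPM in CePPy libraries and 18.5, 21.5 and 22.2 CPM in vehicle libraries (-0.0046, SE 0.11). Psmd9 and Psmd10, which assist the ATPase ring, gave -0.05 and -0.07. Psmg3 gave -0.22, and its groups overlapped only narrowly, with CePPy 1 at 11.99 CPM and vehicle 3 at 11.97 CPM. Psmc3ip, the recombination factor, measured 5.40, 6.46 and 5.53 CPM in CePPy libraries and 7.63, 9.12 and 8.20 CPM in vehicle libraries (-0.52, SE 0.15, edgeR adjusted p = 0.152), the largest difference among the tested members.

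Per unit of length, the 26S subunit transcripts were not equal in level. On the TPM scale (counts per kilobase of annotated exon, scaled to the same sum in each library), the 31 expressed subunits ranged from 38.7 (Psmd11) to 478 (Psmb5) in CePPy kidneys and from 48.1 (Psmd11) to 643 (Psmb5) in vehicle kidneys. Their medians were 91.8 TPM in CePPy and 114 TPM in vehicle. Psmb5 was at the top with either measure of length tried, but most other ranks rest on which exons are counted: with the longest transcript as the length, the lowest gene in vehicle was Psmc2 at 73.1 TPM and the median was 147 TPM. TPM values were not corrected by TMM, so they are used to set levels side by side and not to measure the difference between groups.

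**Figure D5:**
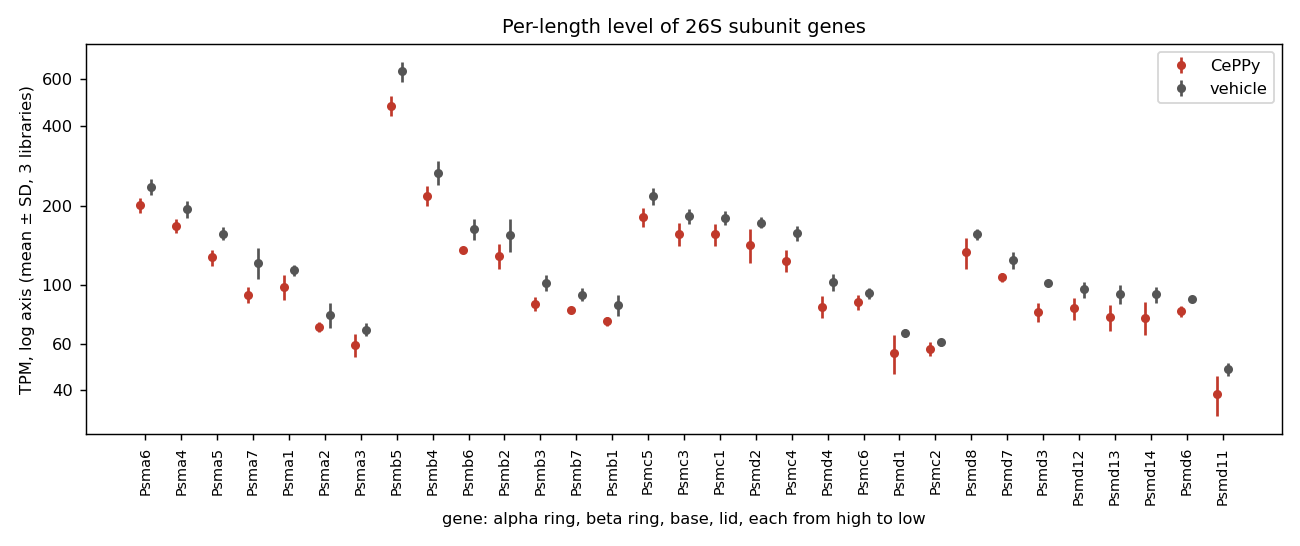
Mean TPM with SD over 3 libraries on a log axis for the 31 expressed 26S subunit genes, ordered within the alpha ring, beta ring, base and lid; CePPy is drawn left of vehicle. Psmb5 stands highest in both groups and Psmd11 lowest.

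The immunoproteasome genes, which are no members, replace the catalytic subunits when cells see interferon. They had 3 of 3 higher values (log2 fold changes 0.35 for Psmb8, 0.61 for Psmb9 and 0.13 for Psmb10). Of them 0 passed the edgeR test (adjusted p from 0.233 to 0.767), DESeq2 or limma-voom. An unadjusted edgeR p under 0.05 was reached by 1, Psmb9, with a higher value (9.65% of all genes). Psmb8 measured 38.0, 33.3 and 23.4 CPM in CePPy libraries and 20.9, 35.2 and 18.2 CPM in vehicle libraries. Psmb9 measured 11.7, 11.01 and 8.13 CPM in CePPy libraries and 6.24, 9.004 and 4.96 CPM in vehicle libraries. For Psmb10 the values were 38.4, 46.7 and 30.2 CPM in CePPy libraries and 33.9, 44.6 and 26.8 CPM in vehicle libraries. Within each group the replicates lay far apart, and vehicle 2 overlapped the CePPy libraries for all 3 genes.

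Set against its standard counterpart on the TPM scale, Psmb9 was 4.79% ± 0.660 of Psmb6 in CePPy and 2.72% ± 0.712 in vehicle (SD, n = 3 each). Psmb8 was 4.57% ± 1.08 of Psmb5 in CePPy and 2.76% ± 0.976 in vehicle, and Psmb10 was 65.3% ± 15.8 of Psmb7 in CePPy and 54.4% ± 14.4 in vehicle. The Psmb9 ratios did not overlap, at 5.13%, 5.22% and 4.03% in CePPy libraries and 2.63%, 3.47% and 2.06% in vehicle libraries, and the other ratios did. The ratios depend on the transcript length used. With the longest transcript, Psmb9 was 3.14% of Psmb6 in CePPy and 1.78% in vehicle. Psmb8 was then 8.096% of Psmb5 in CePPy and 4.89% in vehicle, and Psmb10 70.7% of Psmb7 in CePPy and 58.9% in vehicle, so no order is read between the pairs. With 3 libraries against 3, an exact two-sided permutation test cannot go below p = 0.1, and none is given for ratios chosen after the values were seen.

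Other genes of the pathway were taken from lists of partners and regulators, with some ubiquitin genes. Of 17 partners of the proteasome, Ddi1 had no counts, and of the 16 tested 13 had lower values (median log2 fold change -0.11), and 0 passed the edgeR test in either direction. An unadjusted p under 0.05 was reached by 3, all lower (9.37% of all genes), and DESeq2 and limma-voom called 0. In 4 (25%) every CePPy library lay below every vehicle library, against 14% of all genes and 18% of genes at 10 CPM or more. Adrm1, a ubiquitin receptor of the base, measured 94.9 ± 5.90 CPM in CePPy and 108 ± 4.78 CPM in vehicle (-0.19, SE 0.08). Sem1, a small lid subunit, measured 42.8 ± 5.35 CPM in CePPy and 51.6 ± 2.91 CPM in vehicle (-0.27, SE 0.10), and the core maturation factor Pomp 98.3 ± 5.44 CPM in CePPy and 108 ± 1.64 CPM in vehicle (-0.13, SE 0.07). Uchl5, a deubiquitinase that docks on Adrm1, measured 29.7 ± 1.98 CPM in CePPy and 34.8 ± 1.32 CPM in vehicle (-0.23, SE 0.09). The stress-induced gene Zfand2a, whose product binds the proteasome, gave -0.14 (SE 0.08).

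Regulators of proteasome transcription had 8 of 15 genes at higher and 7 at lower values (median log2 fold change 0.008). In 5 (33.3%) every CePPy library lay above every vehicle library, against 12.3% of all genes. In 1 (6.67%) every CePPy library lay below, against 14% of all genes. By edgeR 0 passed, 4 had an unadjusted p under 0.05, all higher (9.65% of all genes), and limma-voom called 0. Nfe2l1, which encodes NRF1, measured 182, 188 and 191 CPM in CePPy libraries and 171, 177 and 179 CPM in vehicle libraries (0.09, SE 0.07, edgeR adjusted p = 0.530). Each CePPy library lay above each vehicle library by a small margin. NRF1 is known to be controlled largely at the protein level, which was not measured. Nfe2l2, which encodes NRF2, measured 128, 156 and 153 CPM in CePPy libraries and 153, 165 and 149 CPM in vehicle libraries (-0.10, SE 0.10). Ogt, the O-GlcNAc transferase that modifies many nuclear proteins, measured 79.4 ± 5.37 CPM in CePPy and 57.0 ± 5.98 CPM in vehicle (0.48, SE 0.10, edgeR adjusted p = 0.102). DESeq2 called Ogt higher (adjusted p = 0.00289), where it called 3.43% of all genes higher. Of the edgeR runs with 1 library left out, only that without CePPy 2 called Ogt higher (adjusted p = 0.0492). There 811 of 15697 genes were called in either direction. Syvn1, the ubiquitin ligase HRD1 that keeps NRF1 low, measured 61.2 ± 4.40 CPM in CePPy and 52.1 ± 1.90 CPM in vehicle (0.23, SE 0.08).

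Among ubiquitin genes, Rps27a, which encodes ubiquitin joined to a ribosomal protein, measured 224 ± 20.5 CPM in CePPy and 315 ± 14.3 CPM in vehicle (-0.49, SE 0.09, edgeR adjusted p = 0.097). DESeq2 called Rps27a lower (adjusted p = 0.00022), where it called 3.23% of all genes lower, and limma-voom called 0 genes of this list. Of the edgeR runs with 1 library left out, only that without CePPy 2 called Rps27a lower (adjusted p = 0.0209). There 2.19% of all genes were called lower. Reads of Rps27a may be shared with processed copies elsewhere in the genome. Ubb, a stress-inducible polyubiquitin gene, measured 827 ± 70.3 CPM in CePPy and 889.6 ± 52.3 CPM in vehicle (-0.10, SE 0.10).

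Several cell type markers had different values in the same libraries, but 0 passed the edgeR test (lowest adjusted p = 0.081, a neutrophil marker). The 5 proximal tubule markers summed to 3086 to 6905 CPM in CePPy libraries and 2666 to 2878 CPM in vehicle libraries, with 5 of 5 at higher values. The 5 injured tubule markers summed to 1377 to 3084 CPM in CePPy libraries and 3507 to 3763 CPM in vehicle libraries, with 4 of 5 at lower values. The 3 thick ascending limb markers summed to 3328 to 5872 CPM in CePPy libraries and 2580 to 2888 CPM in vehicle libraries. Of these, 3 of 3 lay wholly above vehicle, against 12.3% of all genes. Most of the sum was Umod, at a mean of 4128 CPM in CePPy and 2596 CPM in vehicle. The 4 collecting duct markers summed to 262.6 to 371.7 CPM in CePPy libraries and 172 to 219.2 CPM in vehicle libraries. Of these, 2 of 4 lay wholly above vehicle, against the same 12.3%. CePPy 1 was farthest from vehicle on the proximal tubule, injured tubule and thick ascending limb sums, as it was in the members' share of counts, while CePPy 3 was farthest by the 26S subunit medians. CePPy 2 was nearest to vehicle on these 3 sums, in the members' share and by the 26S subunit medians. The 4 neutrophil markers summed to 9.12 to 21.4 CPM in CePPy libraries and 32.1 to 47.3 CPM in vehicle libraries. For T and NK cells, 3 of 4 markers were found. They summed to 8.69, 3.72 and 1.47 CPM in CePPy 1, 2 and 3 and 1.81, 4.77 and 0.713 CPM in vehicle 1, 2 and 3. Their counts were low, with Cd3d at 0 in vehicle 3. Vehicle 2 was the highest vehicle library there, as for the immunoproteasome genes. CePPy 1 was the highest CePPy library, as for Psmb8 and Psmb9, while Psmb10 was highest in CePPy 2. Mitochondrial transcripts took 14.3% to 14.99% of counts in CePPy and 11.8% to 14.8% in vehicle. Scaled by total counts without TMM, the members' median log2 fold change was -0.21, where the median over all genes was -0.023. With the mitochondrially encoded genes also left out, the members' median was -0.19, where that over all genes was 0.003. The part of the cell type differences in the proteasome values was not tested.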

How the data were processed

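The authors deposited 1 table of whole-number read counts per gene for all 6 libraries, with no normalization. The labels tie each column to a sample, and groups and replicate numbers come from the titles. Per the labels' protocols, TRIzol-extracted total RNA (2 µg) went into each mRNA library. The submitters' processing notes name TopHat2, Cufflinks, DESeq and GRCm38. The sources used here do not give the counting program, its use of strand and of reads with several matches, or the annotation release, so reads of near-identical copies could be split.

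The counts were compared with the edgeR 4.0.16 quasi-likelihood test (R 4.3.3) after filterByExpr and TMM scaling, with treatment as the only term, 4 residual degrees of freedom and Benjamini-Hochberg adjustment over 15416 genes. CPM use TMM-scaled library sizes, and log2 differences by library add a prior count of 2. DESeq2 1.42.0 and limma 3.58.1 (voom) were alternatives, with another scaling, no filter, each library left out and a replicate block. The tests were checked on simulated data with changes larger than that of any member. That check does not cover differences as small as the members'. Libraries of a group differed by more than sampling noise (chi-square per degree of freedom 19.7 to 106). Coordinates and exon lengths come from GENCODE M21, which held 22022 of 22036 Ensembl identifiers, and promoters from RefSeq. Genes given library by library were, in each part of the proteasome, the 3 with the lowest p (2 in a part of under 5) and the 1 nearest to no change. A short fixed set was added, of catalytic, receptor, activator and regulator genes, with up to 2 further genes of each pathway list by lowest p; some ubiquitin genes are not reported here. The members, lists and rules were chosen with earlier results of these data known.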

Additional observations from a re-analysis of the deposited data

How the results depend on the processing

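The members' direction held in each alternative run: between 39 and 42 of 46 had a negative log2 fold change, and the members' median lay between -0.21 and -0.19 under other scalings, no filter, DESeq2, limma-voom and the replicate block. With 1 library left out it ranged from -0.22 to -0.14. Left-out libraries also gave ranges of -0.28 to -0.17 for the lid, -0.23 to -0.16 for the beta ring, -0.25 to -0.17 for the assembly chaperones, -0.25 to -0.15 for the base and -0.19 to -0.12 for the alpha ring. For the activators and inhibitor the range was 0.012 to 0.074.

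What depended on the method was the count of genes called. Over all genes edgeR called 1 (0 higher, 1 lower), against 63 (26 higher, 37 lower) with no filter, 1026 (528 higher, 498 lower) with DESeq2, and 0 (0 lower) with the replicate block. With 1 library left out the count ranged from 0 to 811 (0 to 467 higher, 0 to 344 lower), the 811 being without CePPy 2. Members called were 4 with DESeq2 and 0 to 1 with 1 library left out. The cause was not tested. The median per-length level of the 31 expressed 26S subunits in vehicle was 147.4 TPM with the longest transcript as the length, against 113.9 TPM with the union of exons.

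Genes near 0 changed sign with 1 library left out. Psmf1 ranged from -0.0172 (without vehicle 1) to 0.0676. Psmc2 ranged from -0.0716 to 0.012 (without CePPy 3) and was 0.0092 without vehicle 3. Psmg2 ranged from -0.0798 to 0.0601 (without CePPy 1) and was 0.0224 and 0.0455 without vehicle 2 and vehicle 3. Psmb10 ranged from -0.0333 (without CePPy 2) to 0.3423 and was -0.0305 without vehicle 3.

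Whether replicate numbers pair the libraries was not settled. Deviations from the group means correlated across genes at -0.15, 0.098 and -0.02 for libraries 1, 2 and 3. Libraries of unlike number gave -0.15 to 0.18, and with so few libraries such values cannot exclude pairing. With a replicate block the SE fell for some members (Psme2b, 0.26 to 0.11) and rose for others (Psmd3, 0.078 to 0.089). Under the replicate block the members' median was -0.19. An unadjusted p under 0.05 was reached by 16 members, all lower (8.79% of all genes). No member was called, where 0 of 15416 genes were called. The alternatives that scaled by total counts were chosen after seeing the data. At 5 to 14 counts per library, Psma8 allows no statement on its direction.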
